A study of Mus musculus with 42 samples.

Results

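The comparison was between Purkinje cells at postnatal day 14 (P14) and Purkinje cells at postnatal day 7 (P7), taken by their array titles, across all genes measured. It rests on 3 arrays at P14 and 3 at P7, out of 42 deposited columns, of which 40 were used. Called changes were then separated by the level of each gene in 4 Stellate/Basket arrays of P14. All groups came from the same mouse line, CB6-Tg(Gad1-EGFP)G42Zjh/J, which carries a Gad67-GFP transgene, and every array is labelled male. Purkinje arrays of P3 (3 arrays) and of P21, P28, P35 and P56 (4 arrays for each age) were used for context. Cells were picked by hand for green fluorescence and for the size of the soma. In the cerebral cortex this line is known for fluorescence in parvalbumin-class interneurons, a subset of GABA-producing neurons, and which cerebellar cells carry it at each age was not tested. Polyadenylated RNA went through 2 rounds of amplification. The labels call the replicates biological without saying whether animals were pooled, so p-values measure the spread between these arrays.

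Purkinje cells are the GABA-releasing output neurons of the cerebellar cortex. In the mouse they are born before birth and, in the postnatal weeks, they build their dendritic tree, receive parallel and climbing fibre synapses and take on a fast spiking habit that rests on particular sodium, potassium and calcium channels. A metabotropic glutamate receptor, mGluR1, drives calcium release from their internal stores. Stellate and basket cells are smaller GABA-releasing interneurons of the molecular layer. They arise later, from precursors that still migrate through the cerebellum after birth, and basket cells contact the Purkinje soma.

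The deposited numbers are normalized log2 values, 1 for each probe set of the array, so 1 unit is a doubling on the authors' scale. No scanner files were used here, so the scale and centring rest on the deposited values alone. No detection calls come with them, so a level near or under the array median of about 6 is not known to be above background, and no fold is given against one. A gene is represented by its brightest probe set, and 17478 genes with a value above 5 in at least 3 arrays were tested. A gene was called when its limma p-value, adjusted by the Benjamini-Hochberg method, was under 0.05 and its log2 difference was at least 1 in size. Differences are P14 minus P7. Array medians lay between 5.91 and 6.16 over the 40 arrays, so no array stood apart in its centre.

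Some arrays went against their labels or stood apart within their group. Xist, the RNA of the inactive X chromosome, was at 6.47, 6.55 and 6.59 in the Purkinje P14 arrays, against 7.22, 12.47 and 12.34 in the P7 arrays and 12.77 to 12.88 in the 4 Stellate/Basket P14 arrays. The Y-linked gene Eif2s3y, chosen after Xist had been seen, was at 9.02, 8.82 and 8.44 at P14, against 8.64, 4.15 and 4.24 at P7 and 4.17 to 4.27 in Stellate/Basket P14 arrays. P7 replicates 2 and 3 and the 4 Stellate/Basket P14 arrays thus paired a high Xist with a low Eif2s3y, which goes against the label male. Over the 40 arrays, 26 showed Xist above 9 with Eif2s3y below 6, and 13 showed the opposite. P7 replicate 1, whose pair of values fits its label, also stood furthest from its group, with 352 genes more than 1 above and 223 more than 1 below both other P7 arrays. The same counts were 32 and 62 for replicate 2 and 26 and 23 for replicate 3. The main counts are therefore also given below with P7 replicate 1 as the only P7 array and with the Xist level as a covariate.

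Between P7 and P14 the Purkinje arrays changed in 2227 genes. Of the 17478 genes tested, 1012 were higher at P14 (5.79%) and 1215 were lower (6.95%), and 5391 had an unadjusted p under 0.05. The median difference over all genes was 0.07. At least a log2 difference of 2 was reached by 304 of the higher and 419 of the lower genes, and at least 4 by 35 and 74. The P14 arrays lay above every P7 array in 1006 of the 1012 higher genes and below every P7 array in 1204 of the 1215 lower ones. Over all genes tested, called or not, the P14 arrays lay entirely above the P7 arrays in 27.2% and entirely below in 17.9%. With P7 replicate 1 as the only P7 array, 2407 genes were called, 1753 of them shared with the 2227. With the Xist level of each array as a covariate, 2297 were called, 2012 of them shared. Without P7 replicate 1, 1968 were called, 1840 of them shared.

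The label Purkinje was checked against marker genes, and the P14 arrays met it while the P7 arrays met it in part. Gad1, which makes GABA, was at 12.29, 12.21 and 12.12 at P14, against 12.40, 12.13 and 11.98 at P7, and did not differ by the test (0.03 ± 0.15, SE; adjusted p = 0.921). Calb1, the calcium buffer calbindin, was at 13.62, 13.58 and 13.53 at P14, against 12.02, 12.05 and 12.60 at P7. The 4 Stellate/Basket P14 arrays held Calb1 at 5.55 to 8.79, so both Purkinje ages lay far above them. The P14 arrays lay above every P7 array, and the difference did not pass the test with the spread pooled over all groups (1.35 ± 1.005; adjusted p = 0.396). It was called with the 6 arrays of the 2 ages alone (adjusted p = 0.00183) and with probe sets averaged (2.62; adjusted p = 8.15e-05). At P3 Calb1 was at 11.68, 11.04 and 4.46, so P3 replicate 3 stood far below the others. Pcp2, a Purkinje cell protein that acts on G protein signalling, was at 13.47, 13.66 and 13.40 at P14, against 10.87, 10.39 and 10.86 at P7, and rose by 2.81 ± 0.50 (adjusted p = 6.50e-05). At P7 its level overlapped that of the Stellate/Basket P14 arrays, which ran from 8.49 to 10.71. Kit, the receptor for stem cell factor and a marker of stellate and basket cells, was at 5.45, 5.10 and 6.09 at P14, against 8.81, 9.66 and 9.55 at P7 and 10.21 to 10.93 in the Stellate/Basket arrays. It fell by 3.79 on the log2 scale (SE 0.29; adjusted p = 6.95e-12).

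Whole marker lists moved in the same way, though their members were chosen with earlier results of these data known. Of 13 measured Purkinje markers 10 rose and none fell, with a median difference of 3.16 beside 0.07 over all genes. Their mean level was 12.65 ± 0.03 (SD, n = 3) at P14 and 9.60 ± 0.37 (n = 3) at P7, and 8.88 ± 0.55 (n = 4) in Stellate/Basket P14 arrays. The calcium-store protein Casq2 was at 11.65, 11.60 and 11.74 at P14, against 6.66, 6.86 and 7.44 at P7, and rose by 4.67 ± 0.36. All 9 molecular layer interneuron markers fell, with a median of -3.79. Their mean level was 5.94 ± 0.07 at P14 and 9.70 ± 0.52 at P7, beside 10.45 ± 0.16 in the Stellate/Basket P14 arrays. Tfap2b, a transcription factor of cerebellar interneurons, was at 5.29, 5.87 and 5.58 at P14, against 11.45, 11.39 and 11.44 at P7, and fell by 5.85 on the log2 scale. The cannabinoid receptor gene Cnr1 (-5.28), the neuronal gap junction gene Gjd2 (-4.52) and the receptor phosphatase gene Ptprk (-4.38) fell too. With probe sets averaged within each gene, the median of the interneuron markers was -1.83. The P7 arrays labelled Purkinje thus carried interneuron markers near the level of the Stellate/Basket arrays, as well as Calb1 at a level these arrays did not reach. Other Purkinje markers went otherwise at P7: Pcp2 overlapped the Stellate/Basket arrays, and Gng13 and Pvalb lay below every one of them. The mean of the Purkinje list was 9.60 at P7 beside 8.88 in those arrays. In such pooled cells, fewer cells of a type and less RNA per cell cannot be told apart, and the part that interneuron RNA has in the differences below was not tested.

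**Figure D1:**
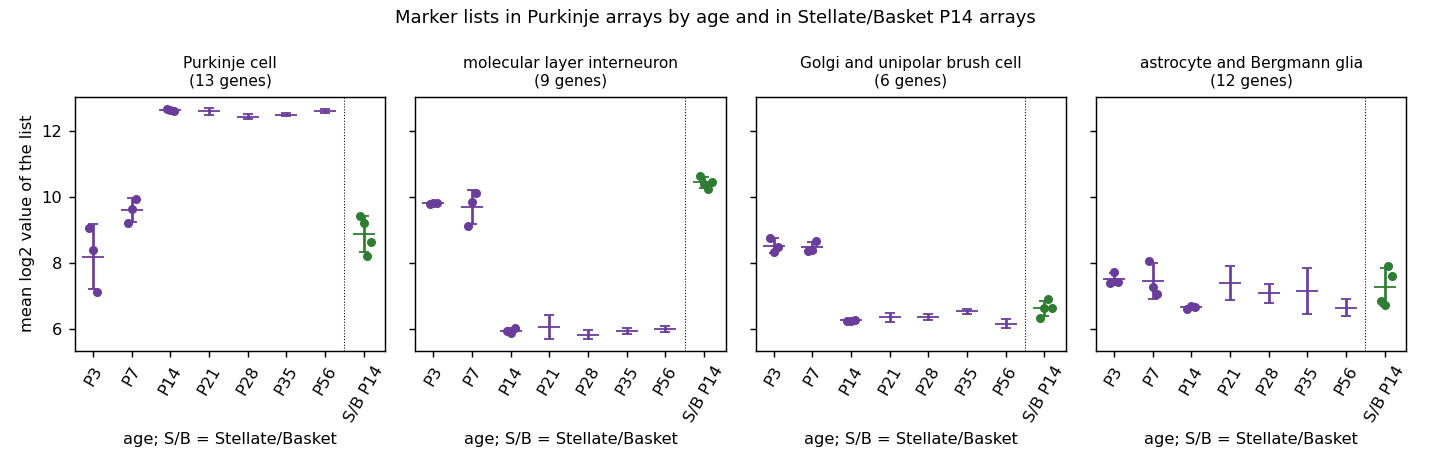
Mean log2 value of 4 marker lists (vertical axis) in Purkinje arrays from P3 to P56 and in Stellate/Basket (S/B) P14 arrays (horizontal axis); bars are the mean with its SD, and points are single arrays of P3, P7, P14 and Stellate/Basket P14. The interneuron markers average 5.94 at P14 and 9.70 at P7, and the Purkinje markers 12.65 at P14 and 9.60 at P7.

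Markers of other cells were checked in the same arrays. Among 6 markers of Golgi and unipolar brush cells, 4 fell and none rose, with list means of 6.25, 6.25 and 6.28 in the P14 arrays, against 8.38, 8.40 and 8.67 in the P7 arrays. Among them were Lgi2, a secreted leucine-rich protein (-5.77 ± 0.38), the neuropeptide gene Sst (-2.99 ± 0.34) and the glycine transporter gene Slc6a5 (-2.91 ± 0.23). These genes were not held by the Stellate/Basket arrays, where the list averaged 6.63. Of 12 astrocyte and Bergmann glia markers 4 fell and 1 rose, with list means of 6.61, 6.71 and 6.66 at P14, against 8.07, 7.26 and 7.05 at P7. The water channel gene Aqp4 was at 5.12, 5.21 and 4.93 at P14, against 9.13, 6.80 and 7.21 at P7, so its highest value was in P7 replicate 1. Fabp7, a fatty acid binding protein of radial glia, fell (-3.99 ± 0.40), while Hopx, a homeodomain protein of Bergmann glia, rose (2.83 ± 0.23). Of 12 granule cell and precursor markers 4 fell and none rose, led by the transcription factor gene Neurod1 (-4.98 ± 0.38), and the defining precursor marker Atoh1 averaged 5.45 at P14 and 5.32 at P7. Of 10 oligodendrocyte markers 2 rose and 2 fell, among them Olig1 (1.88 ± 0.43) and Mbp (-1.70 ± 0.26), while the myelin gene Mog averaged 4.77 at both ages. None of 7 microglia, 8 endothelial and mural, 4 interneuron precursor and 2 red blood cell markers was called. The microglial receptor Cx3cr1 averaged 6.12 at P14 and 5.96 at P7. The part of glial and Golgi cell RNA in the results was not tested.

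Genes were then sorted by their mean in the 4 Stellate/Basket P14 arrays. These arrays do not enter the P14 minus P7 difference, but they enter its test through the spread pooled over all groups. A mean of at least 8 was taken as held, under 7 as low, and the rest as between. There were 9319 low, 2788 between and 5371 held genes. Of the low genes, 350 were higher at P14 (3.76%) and 191 lower (2.05%). Of the held genes, 432 were higher (8.04%) and 851 lower (15.8%), and of those between, 230 were higher (8.25%) and 173 lower (6.21%). With the brightest probe set of each gene, the decreases thus lay mainly among genes that Stellate/Basket cells held, with 70% of the 1215, against 42.7% of the 1012 increases. With probe sets averaged within each gene this was weaker, with 436 of 838 lower and 235 of 764 higher genes held. The called genes nearest the lower bound had Stellate/Basket means of 7.0002 and 6.9982, those nearest the upper bound 8.0007 and 7.9963, and 172 and 234 called genes lay within 0.25 of the 2 bounds.

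**Figure D2:**
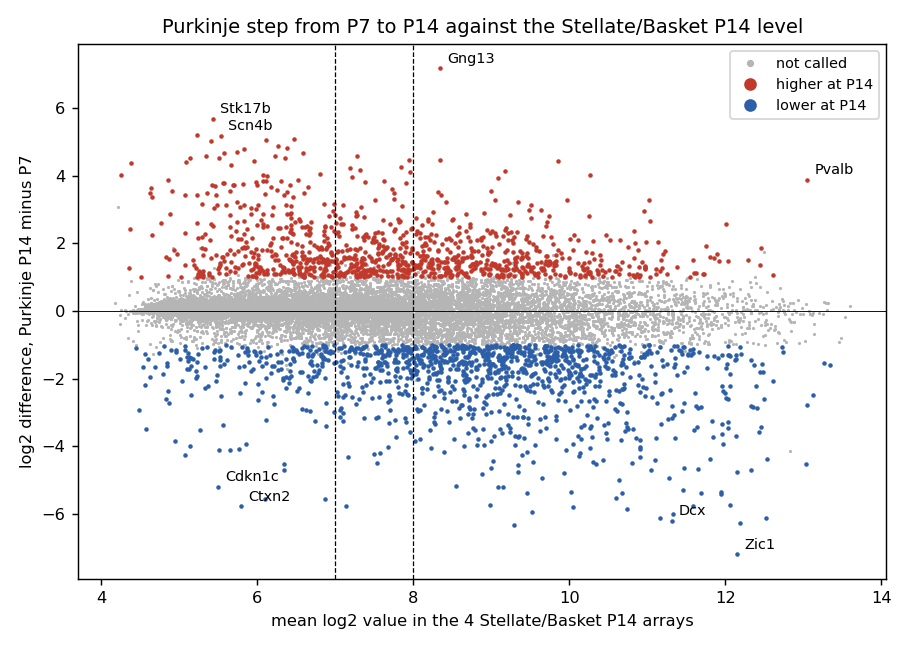
Each point is 1 of 17478 genes, placed by its mean log2 value in 4 Stellate/Basket P14 arrays (horizontal axis) and its log2 difference between Purkinje P14 and P7 (vertical axis); red and blue points were called higher and lower, and dashed lines mark the bounds at 7 and 8. Lower genes are most frequent right of the upper bound, with 851 of 1215, and Gng13 lies at the top.

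The leading genes of the 4 combinations were Stk17b, Gng13, Zic1 and Ctxn2. Their promoters, from 250 bases before to 50 after the RefSeq transcription start, are shown because these genes carry the largest change in each combination, with GC boxes (GGGCGG on either strand) in capitals. The sequences are from RefSeq on build GRCm38.p6, each written along the strand of its gene, and Gng13 has 2 starts listed, of which 1 is shown. Stk17b lies on the minus strand at chr1:53785166-53785465, Gng13 on the plus strand at chr17:25716922-25717221, Zic1 on the minus strand at chr9:91365719-91366018 and Ctxn2 on the plus strand at chr2:125136442-125136741.
Stk17b: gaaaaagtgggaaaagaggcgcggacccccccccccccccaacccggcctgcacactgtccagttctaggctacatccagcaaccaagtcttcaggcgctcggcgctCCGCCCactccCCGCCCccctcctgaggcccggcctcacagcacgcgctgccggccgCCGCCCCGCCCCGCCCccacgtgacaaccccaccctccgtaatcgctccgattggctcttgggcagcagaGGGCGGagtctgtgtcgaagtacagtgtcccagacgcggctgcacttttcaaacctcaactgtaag
Gng13: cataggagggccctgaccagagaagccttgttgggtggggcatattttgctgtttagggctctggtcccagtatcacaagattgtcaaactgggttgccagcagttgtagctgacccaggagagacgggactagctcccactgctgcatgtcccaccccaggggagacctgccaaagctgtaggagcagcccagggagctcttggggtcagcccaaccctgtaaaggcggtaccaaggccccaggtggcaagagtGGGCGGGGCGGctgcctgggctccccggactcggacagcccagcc
Zic1: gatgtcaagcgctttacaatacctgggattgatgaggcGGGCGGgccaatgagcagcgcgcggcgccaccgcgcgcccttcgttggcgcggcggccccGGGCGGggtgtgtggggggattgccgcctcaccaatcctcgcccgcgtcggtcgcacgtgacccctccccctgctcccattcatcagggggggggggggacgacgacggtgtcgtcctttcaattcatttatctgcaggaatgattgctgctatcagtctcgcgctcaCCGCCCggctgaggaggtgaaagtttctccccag
Ctxn2: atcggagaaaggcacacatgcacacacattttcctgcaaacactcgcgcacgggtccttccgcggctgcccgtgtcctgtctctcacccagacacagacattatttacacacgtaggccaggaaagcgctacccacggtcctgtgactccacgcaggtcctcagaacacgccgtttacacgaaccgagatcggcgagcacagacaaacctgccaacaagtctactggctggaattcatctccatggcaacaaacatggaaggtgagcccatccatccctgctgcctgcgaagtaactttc
The first 3 promoters hold GC boxes and that of Ctxn2 holds none. A GC box was present in 55.3% of the 13884 promoters matched to tested genes, in 44.4% of those of low genes and in 68.2% of those of held genes. It was present in 62.6% of promoters of higher and low genes, 60.2% of higher and held, 61.5% of lower and low and 70.8% of lower and held. The nuclear receptor core AGGTCA stood in 13.8% of all promoters, in 15.8% of those of low genes and in 11.5% of those of held genes. It stood in 10.1% of higher and low, 13.6% of higher and held, 6.76% of lower and low and 9% of lower and held. TATAAA stood in 9.41% of all promoters, in 12.2% of those of low genes and in 6.09% of those of held genes. In the same 4 sets it stood in 10.1%, 7.96%, 7.43% and 6%. The cyclic AMP element TGACGTCA stood in 2.71% of all promoters, in 1.95% of those of low genes and in 3.72% of those of held genes. In the same 4 sets it stood in 2.88%, 3.54%, 2.7% and 1.8%, and the MEF2 motif stood in 0.122% of all promoters. Both strands were searched, GC boxes may overlap each other, and a match is a description of the letters.

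Genes that rose and were low in Stellate/Basket cells lay near the low end of the scale until P7. Over the 350 genes, the median level was 6.32 at P3, 6.38 at P7 and 8.30 at P14, beside 6.22 in the Stellate/Basket P14 arrays, with a median difference of 1.73. Stk17b (1450997_at), a serine/threonine kinase of the death-associated family, was at 12.28, 12.17 and 12.17 at P14, against 6.34, 6.37 and 6.86 at P7, and between 5.17 and 5.78 in the Stellate/Basket P14 arrays. Its log2 difference was 5.68 ± 0.43 (SE; adjusted p = 5.23e-12). The 8 genes named in each class were taken from those whose P14 and P7 arrays did not overlap. Scn4b (1434008_at), the sodium channel beta subunit that takes part in resurgent current, was at 10.97, 10.73 and 10.88 at P14, against 5.80, 5.64 and 5.63 at P7. It rose (5.17 ± 0.32; adjusted p = 3.89e-14), with P3 at 5.63 as well, so its levels before P14 lay under the array median. Ppp1r17 (1449240_at), a phosphatase inhibitor that is a substrate of cGMP-dependent kinase in Purkinje cells, was at 12.96, 12.95 and 12.92 at P14, against 6.48, 8.54 and 8.59 at P7. P7 replicate 1 was the low one among these, at a level like that of P3 (6.37), and the difference was 5.08 ± 0.52. Cep76, a centrosomal protein gene, was at 10.88, 10.56 and 10.46 at P14, against 5.27, 5.36 and 5.65 at P7 (5.20 ± 0.40). Clmn, which encodes the actin-binding membrane protein calmin, rose by 5.05, the secreted protein gene Nell1 by 5.02, the orphan receptor gene Gprc5b by 4.87 and the plexin domain gene Plxdc1 by 4.81 on the log2 scale.

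Genes that rose and were held by Stellate/Basket cells included several of the best known Purkinje genes. Over the 432 genes the median level was 8.78 at P3, 8.95 at P7 and 10.56 at P14, beside 9.17 in Stellate/Basket P14 arrays. Gng13 (1419414_at), a G protein gamma subunit, was at 13.22, 13.29 and 13.23 at P14, against 5.38, 6.23 and 6.61 at P7. The Stellate/Basket arrays ranged from 6.75 to 9.34, so its place among the held genes rests on 2 of the 4. It rose by 7.17 ± 0.41 on the log2 scale (adjusted p = 8.93e-15), with P7 levels around the array median. Pvalb (1417653_at), the calcium buffer parvalbumin, which fast-spiking neurons carry, was at 13.64, 13.71 and 13.67 at P14, against 7.80, 10.61 and 10.99 at P7. Stellate/Basket P14 arrays held it at 12.53 to 13.38, above every P7 Purkinje array (3.88 ± 0.46; adjusted p = 6.21e-08). Aldoc (1451461_a_at), the aldolase known as zebrin II that marks Purkinje cell stripes, was at 14.29, 13.99 and 14.09 at P14, against 8.69, 10.44 and 11.19 at P7 (4.02 ± 0.34). Car7, a carbonic anhydrase that supplies bicarbonate for GABA-A currents, was at 13.31, 13.20 and 13.23 at P14, against 7.11, 9.81 and 10.43 at P7 (4.13 ± 0.43). The protease gene Htra1 rose by 4.47, the membrane protein gene Tmem204 by 4.42, the tubulin gene Tuba8 by 3.93 and Inpp5a, which removes a phosphate from inositol trisphosphate, by 3.55 on the log2 scale. In each of the 8 genes named here P7 replicate 1 had the lowest P7 value.

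Genes that fell and were held by Stellate/Basket cells formed the largest class. Over the 851 genes the median level was 9.71 at P3, 9.64 at P7 and 7.59 at P14, beside 9.52 in Stellate/Basket P14 arrays. Zic1 (1423477_at), a zinc finger transcription factor of cerebellar interneurons and granule cells, was at 4.75, 4.64 and 4.77 at P14, against 11.90, 11.998 and 11.83 at P7. The Stellate/Basket arrays ran from 11.92 to 12.54 and overlapped the P7 Purkinje arrays, and the difference between the Purkinje ages was -7.19 ± 0.48 on the log2 scale (adjusted p = 2.92e-13), with P14 levels under the array median. Dcx (1418139_at), a microtubule protein of migrating and immature neurons, was at 5.77, 5.80 and 5.87 at P14, against 12.29, 11.93 and 11.80 at P7 (-6.19 ± 0.31). Gap43 (1423537_at), a growth cone protein, was at 5.81, 5.59 and 5.49 at P14, against 11.64, 11.61 and 11.94 at P7 (-6.11 ± 0.20; adjusted p = 3.01e-21). Arrays that did not overlap were a condition for naming both genes, and their P14 arrays lay more than 5 units below every P7 array. Cd24a, a surface glycoprotein of young neurons, was at 4.64, 4.58 and 4.70 at P14, against 11.49, 10.52 and 10.87 at P7, and Stellate/Basket arrays held it at 9.10 to 9.66. Btbd11 (-6.27), the actin-binding protein gene Tmsb4x (-6.10), Cnpy1 (-5.98) and the kainate receptor subunit gene Grik3 (-5.93) also fell.

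A smaller class fell although Stellate/Basket cells did not hold the genes. Over these 191 genes the median level was 7.20 at P3, 7.19 at P7 and 5.48 at P14, beside 6.11 in Stellate/Basket P14 arrays. Ctxn2 (1436493_at), a small membrane protein gene of the cortexin family, was at 5.68, 5.84 and 5.95 at P14, against 11.35, 11.73 and 11.69 at P7, and at 5.67 to 5.95 in the Stellate/Basket arrays (-5.76 ± 0.44; adjusted p = 5.57e-12). Cdkn1c (1417649_at), which encodes a cell cycle inhibitor, was at 5.78, 5.83 and 5.97 at P14, against 11.42, 11.13 and 10.58 at P7, and at 5.26 to 5.99 in Stellate/Basket arrays (-5.18 ± 0.27). Both genes were therefore high in the P7 Purkinje arrays and in neither P14 cell type. Vcan, the matrix proteoglycan versican, was at 5.43, 5.50 and 5.74 at P14, against 11.52, 10.64 and 11.11 at P7 (-5.54 ± 0.30). The FERM domain gene Frmd4b (-5.56), Stum (-4.68), the Rap exchange factor gene Rasgrp2 (-4.51), the synaptic adhesion gene Lrrtm1 (-4.24) and Scrg1 (-4.12) also fell. With P7 replicate 1 as the only P7 array this class held 311 genes.

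**Figure D3:**
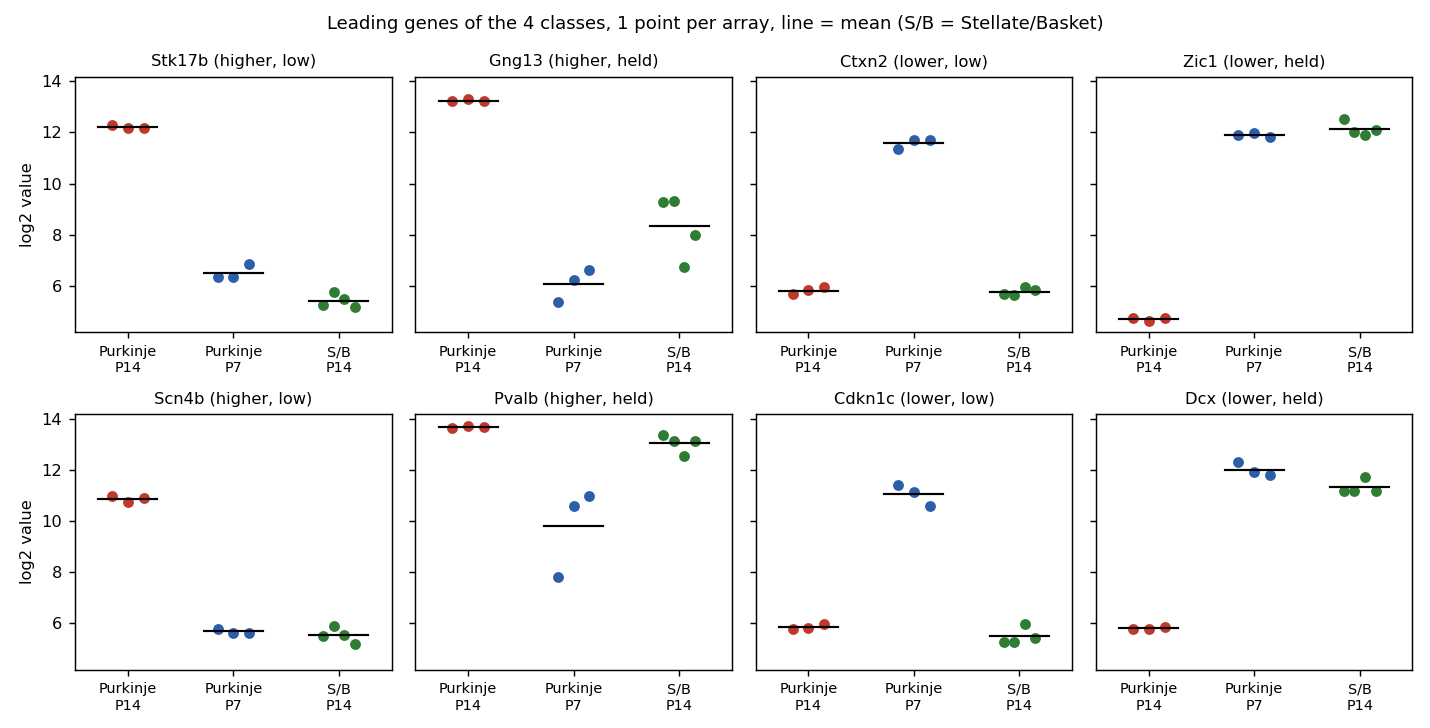
Log2 values (vertical axis) of 2 genes from each combination of direction and Stellate/Basket level, with 1 point per array and a line at the mean, for Purkinje P14, Purkinje P7 and Stellate/Basket (S/B) P14. Zic1 and Dcx are high in Purkinje P7 and Stellate/Basket P14, Ctxn2 and Cdkn1c in Purkinje P7, and Stk17b and Scn4b in Purkinje P14.

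The nearness of each Purkinje age to the Stellate/Basket P14 arrays was counted directly. Purkinje P14 differed from them in 2327 genes (13.3%), 1151 higher and 1176 lower. Purkinje P7 differed from them in 605 genes (3.46%), 358 higher and 247 lower. Without P7 replicate 1 the second count was 478, without replicate 2 it was 595 and without replicate 3 it was 628, so it depended on the P7 arrays used. Both comparisons use the same Stellate/Basket arrays, and Xist was low in the 3 Purkinje P14 arrays, low in 1 of 3 Purkinje P7 arrays and high in the 4 Stellate/Basket P14 arrays.

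Functional lists were read against the background of 5.79% higher and 6.95% lower genes and a median of 0.07. Among held genes these shares were 8.04% and 15.8%, and among low genes 3.76% and 2.05%. Of the members tested, all 31 oxidative phosphorylation, 20 of 21 ribosomal protein and 23 of 25 immature neuron genes were held. Calls near these shares do not set a list apart. List members were chosen with earlier results of these data known. The choice of the brightest probe set bears on these lists: with probe sets averaged, 21 of the 162 named genes had no call. Of those described below, these were Slc12a5 (0.90), Gabra2 (-0.52), Gabrg1 (-0.86), Map2 (-0.53), Map6 (-0.65), Hdac9 (0.99), Phf10 (-0.79), Rps18 (-0.98), Sdha (0.55), Fdft1 (-0.68), Arntl (0.74), Eef2 (-0.75), Kcnd3 (0.39), Mcl1 (-0.72) and Bcl2l11 (-0.47), all in the same direction as before. The glial gene Aqp4, described above, was at -0.89 under the same choice. Among genes of mGluR1 signalling, the path by which glutamate releases stored calcium, 11 of 16 genes rose and 1 fell (median 1.43). Itpka, which phosphorylates inositol trisphosphate, was at 11.62, 11.56 and 11.62 at P14, against 7.63, 6.49 and 7.35 at P7 (4.44 ± 0.43). Atp2a3, a calcium pump that refills the store, was at 11.45, 11.15 and 11.27 at P14, against 7.05, 7.71 and 7.24 at P7 (3.96 ± 0.33). The ryanodine receptor gene Ryr1 rose by 3.83, and Casq2 is a member too. The P14 arrays lay above every P7 array in each of these 4 genes. Interneuron markers fell in the same arrays, 9 of 9.

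Ion channels changed in both directions. Of 22 potassium and HCN channel genes 12 rose and 2 fell (median 1.11). Kcnab1, an auxiliary potassium channel subunit, was at 11.31, 11.25 and 11.02 at P14, against 7.20, 6.55 and 5.80 at P7 (4.68 ± 0.47). The channel-interacting genes Kcnip4 and Kcnip1 rose by 2.75 and 2.64. Kcna1, a delayed rectifier subunit, was at 11.64, 11.42 and 11.69 at P14, against 7.69, 9.49 and 9.60 at P7 (2.66 ± 0.35), and its Stellate/Basket mean was 11.04. Of 11 sodium channel genes 3 rose and 5 fell. Beside the increase of Scn4b stood decreases of Scn3b, another beta subunit (-5.20 ± 0.29), Scn2a, a pore subunit (-3.30 ± 0.38), and Fgf13, an intracellular channel partner (-5.77 ± 0.26). Scn3b was at 5.17, 5.11 and 5.15 at P14, against 10.46, 10.28 and 10.28 at P7. Of 15 calcium channel genes 4 rose and 5 fell. The T-type pore gene Cacna1g (2.72 ± 0.32) and the auxiliary Cacnb4 (2.70 ± 0.27) rose, and the N-type pore gene Cacna1b (-2.70 ± 0.17) and the auxiliary Cacna2d3 (-3.17 ± 0.32) fell. Of 14 calcium buffer and extrusion genes 4 rose and 4 fell. Pvalb rose, while the plasma membrane pump gene Atp2b3 (-3.48) and the sodium-calcium exchanger genes Slc8a1 (-3.14) and Slc8a3 (-2.73) fell.

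Receptors and synaptic genes were also mixed. Of 14 ionotropic glutamate receptor genes 4 rose and 3 fell (median 0.15). Gria4 was at 5.96, 6.18 and 6.24 at P14, against 10.87, 10.30 and 11.08 at P7 (-4.62 ± 0.45), while Gria1 was at 11.20, 10.58 and 10.96 at P14, against 10.20, 8.60 and 8.32 at P7 (1.87 ± 0.42). The increase of Gria1, an AMPA receptor subunit like Gria4, was lost with P7 replicate 1 as the only P7 array (0.72). Among kainate receptor subunits Grik1 rose (3.41 ± 0.53) and Grik3 fell (-5.93 ± 0.29). Of 9 GABA-A receptor genes 1 rose, Gabrb2 (2.04 ± 0.54), and 4 fell, among them Gabra2 (-2.01 ± 0.42), Gabra5 (-1.66 ± 0.26) and Gabrg1 (-1.51 ± 0.43). With P7 replicate 1 as the only P7 array, Gabra5 (-0.74; adjusted p = 0.0787) and Gabrg1 (-1.60; adjusted p = 0.0736) were not called. Of 11 genes of GABA synthesis, transport and chloride 3 rose and 1 fell. Slc12a5, the potassium chloride exporter KCC2, was at 12.71, 12.51 and 12.74 at P14, against 10.53, 11.50 and 11.41 at P7 (1.51 ± 0.28). Slc12a2, the chloride importer NKCC1, was at 6.95, 6.83 and 6.93 at P14, against 8.66, 9.08 and 9.12 at P7 (-2.05 ± 0.27). The groups did not overlap in either transporter gene. Of 22 parallel and climbing fibre synapse genes 3 rose and 6 fell, with the scaffold gene Dlg2 at 2.44 ± 0.31 and the vesicle genes Syt1 and Rims1 at -3.45 ± 0.33 and -2.61 ± 0.28.

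Genes of immature neurons and neurite growth fell, 20 of 25 with none higher (median -2.07), of which 18 were held by Stellate/Basket cells. Their mean level was 8.72 ± 0.04 at P14 and 11.39 ± 0.20 at P7, beside 10.89 in Stellate/Basket P14 arrays. Dcx, Gap43, Cd24a and Tmsb4x belong to this list. The interneuron markers fell in the same arrays (median -3.79), and their part in these decreases was not tested. Of 42 axon guidance genes 4 rose and 10 fell, with the ephrin receptor gene Epha5 at 3.56 ± 0.46 and the receptor genes Neo1 and Ephb1 at -3.62 ± 0.30 and -3.35 ± 0.24. The semaphorin gene Sema6d was at 7.17, 6.83 and 6.81 at P14, against 11.74, 11.34 and 11.20 at P7, and Stellate/Basket P14 arrays averaged 7.53. Of 28 cell adhesion genes 5 rose and 8 fell, among them Ptprr (4.16 ± 0.46), Chl1 (-5.34 ± 0.42), Ptprf (-4.27 ± 0.38) and Cdh4 (-3.25 ± 0.25). Of 10 perineuronal net genes 1 rose, the link protein gene Hapln4 (2.95 ± 0.27), and 4 fell, among them Tnr (-2.54 ± 0.30), Ncan (-2.36 ± 0.22) and Vcan. Of 17 axon initial segment, node and neurofilament genes 3 rose and 2 fell. Nefh, the heavy neurofilament gene, was at 11.35, 11.15 and 11.31 at P14, against 7.09, 7.94 and 7.45 at P7 (3.78 ± 0.37), and Nefm rose by 1.76, while the microtubule protein genes Map6 (-1.73 ± 0.25) and Map2 (-1.40 ± 0.44) fell. Without P7 replicate 1 Map2 was at -0.83 and not called, and with P7 replicate 1 as the only P7 array Nefm was at 1.197 and not called.

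Transcription regulators changed in both directions. Of 17 Purkinje lineage regulators 8 rose and 3 fell (median 0.54). Bcl11a, a zinc finger repressor, was at 11.71, 11.76 and 11.62 at P14, against 9.36, 7.27 and 9.07 at P7 (3.13 ± 0.44). Rora, the nuclear receptor mutated in staggerer mice, was at 12.73, 12.61 and 12.68 at P14, against 8.53, 10.86 and 10.95 at P7 (2.56 ± 0.44). Ebf1 was at 10.52, 10.18 and 10.12 at P14, against 9.41, 7.16 and 7.34 at P7 (2.31 ± 0.45), and was not called with P7 replicate 1 as the only P7 array (0.87). En2, a homeodomain gene of the cerebellar region, fell by 3.54 ± 0.24. Of 21 interneuron and granule lineage regulators 12 fell and 2 rose (median -1.64), 10 of the 12 held by Stellate/Basket cells. Beside Zic1, Tfap2b and Neurod1, the zinc finger gene Zic5 fell (-5.20 ± 0.21), and was at 4.87, 5.09 and 4.87 at P14, against 9.99, 10.18 and 10.26 at P7. This list shares Tfap2b with the interneuron markers and Neurod1 with the granule cell markers, and the part of such cells in its decreases was not tested. Of 21 chromatin genes 2 rose, Hdac11 (2.01 ± 0.35) and Hdac9 (1.86 ± 0.32), and 5 fell, among them Phf10, a subunit of the progenitor form of the BAF complex (-1.51 ± 0.33), and Hdac1 (-1.27 ± 0.23). Of 10 thyroid hormone genes 2 fell, the receptor gene Thra (-1.53 ± 0.20) and the binding protein gene Crym (-1.07 ± 0.23), and none rose. Crym was not called with P7 replicate 1 as the only P7 array (-0.91), without P7 replicate 2 (-0.97) or with Xist as a covariate (-0.86).

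Among housekeeping and metabolic lists, 12 of 21 ribosomal protein genes fell and none rose (median -1.26), with a list mean of 10.51 ± 0.19 at P14 and 11.75 ± 0.06 at P7. Rplp0 was at 8.75, 9.78 and 8.83 at P14, against 11.86, 11.46 and 11.67 at P7 (-2.54 ± 0.32), and Rps19 (-2.16 ± 0.27) and Rps18 (-1.57 ± 0.21) fell. Ribosomal protein genes have near-identical copies in the genome, so their probe sets may not read a single gene. Of 31 oxidative phosphorylation genes 2 rose, Sdha (1.11 ± 0.18) and Ndufa9 (1.10 ± 0.20), and none fell. Ndufa9 was at 0.89 and not called without P7 replicate 1, and Sdha at 0.98 with Xist as a covariate. Of 18 mitochondrial regulator and energy genes 5 rose and 4 fell, among them Esrrg, an orphan nuclear receptor (-4.20 ± 0.34), and the lactate dehydrogenase gene Ldha (-1.81 ± 0.25). Of 17 cholesterol synthesis genes 7 fell and 1 rose (median -0.80), with Fdft1 at -2.08 ± 0.42 and Hmgcs1 at -1.80 ± 0.29. Of 16 clock genes 4 rose and none fell, led by the transcription factor gene Dbp, at 11.20, 11.29 and 11.08 at P14, against 6.96, 8.43 and 9.28 at P7 (2.97 ± 0.32). Hlf rose by 1.90, Per1 by 1.35 and Arntl by 1.26, and the time of day of the sorts is not given in the labels. Arntl was not called without P7 replicate 1 (1.002; adjusted p = 0.0997) or without P14 replicate 1 (1.15; adjusted p = 0.0551). Of 23 cell cycle genes 7 fell and 2 rose, among them Ccnd2 (-3.73 ± 0.42) and Rrm2 (-2.93 ± 0.66). Rrm2, a ribonucleotide reductase subunit, was at 4.79, 5.04 and 4.75 at P14, against 9.89, 6.06 and 7.40 at P7, with P7 replicate 1 the highest, and its difference was -1.87 without that array.

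Of 19 immediate early and stress genes 4 fell and none rose, with the chaperone gene Hspa1b at -3.14 ± 0.39 and Dusp1 at -2.47 ± 0.45. Egr1, an activity-induced transcription factor gene, was at 7.40, 7.34 and 7.504 at P14, against 10.45, 8.09 and 8.17 at P7 (-1.49 ± 0.51), and without P7 replicate 1 its difference was -0.72 and not called. It also lost its call without any 1 of the P14 arrays (adjusted p = 0.0687 to 0.0895). Of 18 growth factor and neuropeptide genes 3 rose and 3 fell. Kitl, the ligand of the receptor that Kit encodes, was at 11.90, 11.66 and 11.80 at P14, against 10.48, 8.04 and 8.42 at P7 (2.80 ± 0.49), and Cck, a neuropeptide gene, rose by 3.06. With P7 replicate 1 as the only P7 array Kitl was at 1.30 and not called (adjusted p = 0.146), and Cck was at 1.93. Penk, the enkephalin precursor gene, was at 6.70, 6.61 and 7.05 at P14, against 10.22, 12.45 and 12.02 at P7 (-4.78 ± 0.44). Of 19 hedgehog, Igf and neurotrophin genes 1 rose, Igfbp3 (3.87 ± 0.54), and 2 fell, Igfbp2 (-3.37 ± 0.17) and Reln (-2.59 ± 0.39). Of 12 apoptosis genes 2 fell, Mcl1 (-1.06 ± 0.34) and Bcl2l11 (-1.01 ± 0.37), and the second turned its direction to 0.26 with P7 replicate 1 as the only P7 array. Mcl1 was not called without P7 replicate 1 (-0.83) or without P14 replicate 2 (-0.87), and Bcl2l11 lost its call without any 1 of P7 replicates 2 and 3 and the 3 P14 arrays. Of 17 hereditary ataxia genes 1 rose, the potassium channel gene Kcnd3 (1.30 ± 0.41), and 1 fell, Eef2 (-1.46 ± 0.25). Kcnd3 was not called without P7 replicate 3 (1.08; adjusted p = 0.10), without P14 replicate 1 (1.17; adjusted p = 0.0787), with P7 replicate 1 as the only P7 array (0.87; adjusted p = 0.353) or with Xist as a covariate (1.12; adjusted p = 0.0835).

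**Figure D4:**
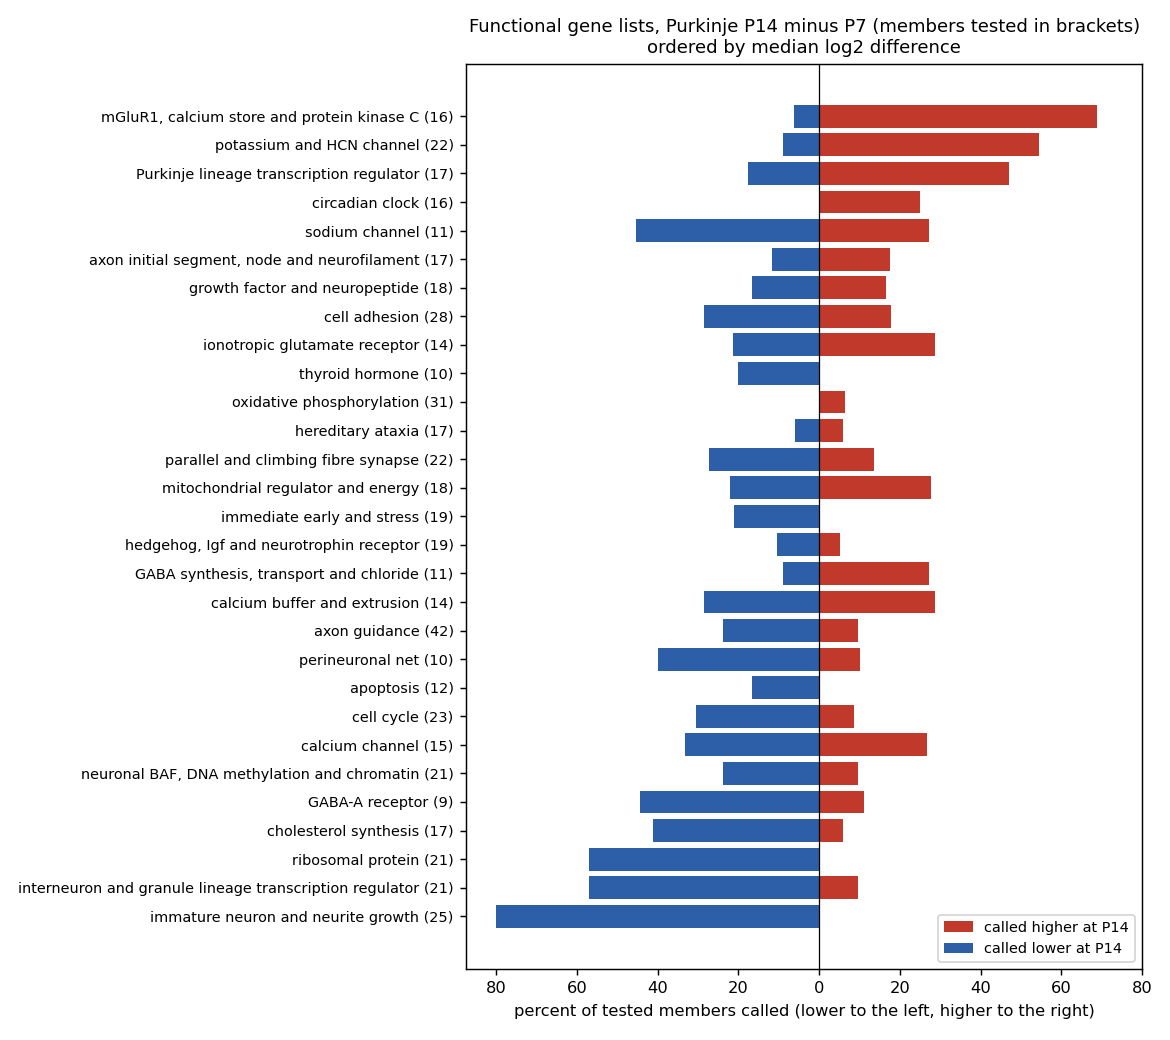
Percent of the tested members of each functional gene list (rows, with the number of members tested) that were called higher (right, red) or lower (left, blue) in Purkinje P14 than in P7; lists are ordered by their median log2 difference. mGluR1 signalling stands at the top with 11 of 16 higher and immature neuron genes at the bottom with 20 of 25 lower.

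The step was then set beside its neighbours. From P3 to P7, 9 genes were called (0.0515%), 7 higher and 2 lower at P7, and 610 had an unadjusted p under 0.05. From P14 to P21, 11 were called (0.0629%), 7 higher and 4 lower at P21, and 437 had an unadjusted p under 0.05. Without P7 replicate 1 the first count was 49, without P7 replicate 3 it was 2, without P3 replicate 2 it was 1, and with P7 replicate 1 as the only P7 array it was 90. The second count was 17 without P21 replicate 1, 4 without any 1 of the P14 arrays, and 6, 7 and 5 without P21 replicates 2, 3 and 4. The differences between steps were tested directly. The step from P7 to P14 differed from that of P3 to P7 in 1058 genes (6.05%) and from that of P14 to P21 in 1340 genes (7.67%). Without P7 replicate 1 the first of these was 731. In 357 of the higher and 552 of the lower genes it differed from both neighbours in its own direction. Stk17b, Scn4b, Cep76, Clmn, Ppp1r17 and Gng13 led the first and Zic1, Cd24a, Btbd11, Dcx, Gap43 and Tmsb4x the second. Gap43 averaged 11.25 at P3, 11.73 at P7, 5.63 at P14 and 5.91 at P21. The neighbouring steps share the P7 or the P14 arrays with the step from P7 to P14. Both tests also contain that step itself, so genes called in it were favoured in the counts of 357 and 552. The same counts over all genes were not made.

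A few genes were high at P7 or at P14 alone by the tests of both steps around that age. Spon1, a secreted adhesion protein gene, averaged 6.69 at P3, 8.43 ± 0.87 at P7 and 6.09 ± 0.23 at P14, so it was called higher at P7 than P3 (1.74 ± 0.35; adjusted p = 0.0365) and lower at P14 than P7 (-2.34 ± 0.35). Its level in Stellate/Basket P14 arrays was 10.59. Dct, which encodes dopachrome tautomerase, averaged 7.10 at P7, 9.35 at P14 and 8.17 at P21. Iah1, an esterase gene, averaged 7.80 at P7, 10.22 at P14 and 8.42 at P21. Insig1, which restrains cholesterol synthesis, averaged 7.77 at P7, 8.94 at P14 and 7.46 at P21, and its decrease after P14 was -1.48 ± 0.25 (adjusted p = 0.00694). Insig1 was at 0.97 from P7 to P14 without P7 replicate 3 and at 0.70 with P7 replicate 1 as the only P7 array, and not called in either. No other gene was called in this way. Zic1 had its low at P14, with 6.88 at P21 (2.17 ± 0.45 above P14; adjusted p = 0.0498).

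Purkinje arrays outside the step were used for a second comparison. Its calls are not independent of those of the step, as both tests share the spread of each gene pooled over the 12 groups. Genes of small spread were thus favoured in both. The difference, the mean of P21, P28, P35 and P56 minus P3, rests on 19 arrays, none of them of P7 or P14. Its P3 arrays had Purkinje marker means of 9.06, 8.40 and 7.12, all below the P7 arrays and beside 8.88 in the Stellate/Basket P14 arrays, and interneuron markers at 9.81, so they met the label Purkinje in part. P3 replicate 3, the lowest in Purkinje markers, is also the array with Calb1 at 4.46. In this comparison 1132 genes were higher (6.48%) and 1478 lower (8.46%). Of the 2227 genes called in the step 1891 were called in the same direction there, 84.9% (95% exact binomial interval 83.4 to 86.4%, for counting error only, genes not being independent). Of the 15251 genes not called in the step 4.7% were called. By class, the share was 83.1% of the higher and low genes, 83.6% of the higher and held, 80.6% of the lower and low and 88.8% of the lower and held. The direction was opposite in 2 genes, both lower at P14. All 16 later arrays lay above every P7 array in 792 of the 1012 higher genes and below every P7 array in 1003 of the 1215 lower ones. These 2 counts use the P7 arrays by which the genes were called, so the choice of genes favoured them. The same counts over all genes were not made. Gng13 ran from 12.04 to 13.43 over the 16 later arrays and Dcx from 5.75 to 7.07. With P7 replicate 1 as the only P7 array the share was 69.8%, and without P3 replicate 3 it was 83.7%. Interneuron markers were high at P3 and low from P21 on, as they were at P7 and P14, and their part in this share was not tested.

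**Figure D5:**
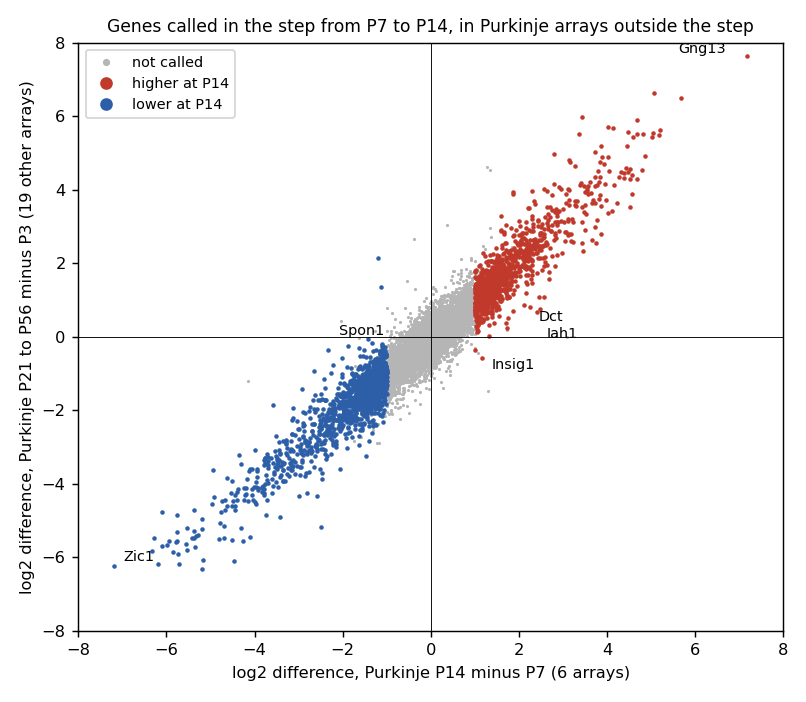
Each point is 1 of 17478 genes, with the log2 difference between Purkinje P14 and P7 from 6 arrays (horizontal axis) and the difference between P21 to P56 and P3 from 19 other Purkinje arrays (vertical axis); red and blue points were called higher and lower at P14. Of 2227 called genes 1891 were also called in the same direction in the other arrays, and Spon1, Dct, Iah1 and Insig1 lie within 1 of 0 there.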

How the data were processed

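Purkinje and Stellate/Basket cells were hand-sorted from Gad67-GFP G42 mice and measured on Affymetrix MOE430.2 arrays. The deposited log2 values were normalized by the authors before deposit. R 2.9.1 and GCRMA are named, per the submitters' processing notes, with no role or order given, and scale and centring could not be checked against scanner files. Of 42 columns, Stellate/Basket P35 replicate 3 and P56 replicate 2 equal the mean of other columns of their group within 1e-08 and were left out.

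Of 45101 probe sets, 34958 carried 1 gene symbol in the platform annotation, 932 several and 9211 none. For each of 18194 genes the brightest probe set on average was taken, 9012 genes having several, and the 17478 genes that exceeded 5 on 3 or more arrays were tested. limma 3.58.1 in R 4.3.3 was fitted with 1 mean for each of 12 groups over 40 arrays, with Benjamini-Hochberg adjustment over the genes of each comparison, and calls needed an adjusted p under 0.05 and an absolute log2 difference of at least 1. The 39 gene lists hold 664 genes, 605 of them on the array. Members and lists were chosen with earlier results of these data known.

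Named were the 8 largest differences with arrays that did not overlap in each combination of direction and Stellate/Basket level, up to 4 called members of each list, 5 checks of the sort and labels, up to 6 genes high at P7 or P14 alone and up to 6 in each direction that differed from both neighbouring steps. On simulated data with 200 of 17478 genes changed, the P14 minus P7 comparison recovered 89.6%, 97% and 100% of changes of 1.5, 2 and 3 log2 units, and 1 other gene was called. The simulated noise was independent, normal and equal in spread over the groups. The measured median SD over genes was 0.168 at P7 and 0.119 at P14, and 2227 genes were called, so these shares hold for the simulated setting only. The number of arrays limits precision. Promoters are from RefSeq on GRCm38.p6, and 13884 tested genes had one. Alternatives covered filters, thresholds, normalization, the variance model, a replicate block and arrays left out. Those with 1 P7 array, with Xist as a covariate and without P3 or P21 arrays were chosen after seeing the data, and the lone P7 array was then assumed to vary like the other groups. Plots were made in matplotlib 3.10.9 under Python 3.11.15.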

Additional observations from a re-analysis of the deposited data

Results flagged for a closer look

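Within the 4 Stellate/Basket P14 arrays, 1 array stood far from the others in 6 of 47 sets of values examined by Dixon's test, where chance gives about 1 in 20. Aldoc was at 10.87 in replicate 2, against 9.99 to 10.14 in the others. Cd24a was at 9.66 in replicate 3, against 9.10 to 9.19, and Dcx was at 11.74 in the same array, against 11.16 to 11.18. Nell1 was at 5.21 in replicate 1, against 5.47 to 5.49. Tmsb4x was at 12.72 in replicate 4, against 12.44 to 12.47. The mean of the 2 red blood cell markers was 4.996 in replicate 1, against 5.15 to 5.16. None of these arrays enters the P14 minus P7 difference of the Purkinje cells.

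The change from P7 to P14 differed from the change from P3 to P7 in 1058 genes, and from the change from P14 to P21 in 1340 genes, by limma's test of the difference between steps with an adjusted p under 0.05 and a difference of at least 1.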

How the results depend on the processing

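Scanner values and detection calls were not used here, so levels near 5 have no measured floor. With probe sets averaged within genes, 235 of 764 higher and 436 of 838 lower genes were held by Stellate/Basket cells. Under this choice 5 genes were called from P3 to P7 and 5 from P14 to P21, and 1478 of its 1602 calls were shared. At a difference of at least 2, 304 genes were higher (147 low, 95 held) and 419 lower (50 low, 317 held), and 86.4% were called alike in the arrays outside the step. With no minimum difference, 1834 were higher (700 low, 752 held), 1860 lower (374 low), and that share was 87.4%. The share was 88.0% at an adjusted p under 0.01 and 82.4% with Xist as a covariate, beside 84.9%. With bounds of 9 and 6 for held and low, 139 higher and 87 lower genes were low and 245 higher genes were held. With P7 replicate 1 as the only P7 array, 311 lower genes were low, 90 genes were called from P3 to P7, the share was 69.8%, and Bcl2l11 turned to 0.26. The causes of these shifts were not tested, apart from the thresholds, which set the counts by construction.

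Leaving out 1 array at a time gave 1 to 49 calls from P3 to P7, 4 to 17 from P14 to P21, 884 to 1357 genes that differed from the later step, and shares of 80.3% to 86.6%. In the P14 minus P7 comparison 891 to 1023 genes were then higher and 1077 to 1295 lower. With a replicate block 2212 genes were called, 2205 of them shared, and the deviations of same-numbered arrays correlated at 0.113, 0.003 and -0.130, so the numbers do not pair the arrays. With probe sets averaged, 21 of the 162 named genes lost their call. Over all alternatives, Bcl2l11, Cnp, Egr1, Map2, Kcnd3, Calb2, Mcl1 and Arntl lost their call most often.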
